A study of Homo sapiens with 5 samples.

Results

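The interval that holds NDRG1 and ST3GAL1 lies on chromosome 8 from 134.15 to 134.6 Mb of the human genome build hg19, and it was described in VCaP, an established line of human prostate cancer cells. Its members are all peaks of acetylated lysine 27 of histone H3 (H3K27ac) and of monomethylated lysine 4 (H3K4me1) that overlap the interval. The H3K27ac lists hold 34 (replicate 1) and 47 (replicate 2) of them, the H3K4me1 lists 75 and 63, which makes 219 of the 364358 peaks of the 4 lists. The peaks come from chromatin immunoprecipitation with sequencing of cells grown in serum-containing medium, with Abcam antibodies and no treatment named in the labels. There are 2 libraries per mark, and 1 input library not used here. The lists hold positions only, so widths and covered lengths are the measurements, and the sequencing depth behind them is unknown. Nothing states that the replicates are separate cultures, and the spread between them may be only technical. VCaP is a single line, and a peak list cannot tell fewer cells carrying a mark from less of the mark per cell.

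NDRG1 encodes a cytoplasmic protein that is induced by hypoxia and cell stress and, in prostate cells, by androgen, and it is studied as a suppressor of metastasis. ST3GAL1 encodes a Golgi enzyme that caps O-linked sugar chains of glycoproteins with sialic acid. H3K27ac marks active promoters and active enhancers. H3K4me1 marks enhancers, active or not, and the flanks of promoters, while the centre of an active promoter usually carries the trimethylated form of the same lysine instead. In the positions used here, rounded to 1 kb, NDRG1 runs from 134.249 to 134.31 Mb and ST3GAL1 from 134.467 to 134.584 Mb, both on the minus strand. Each gene therefore starts at its higher coordinate, and the stretch between them, 157 kb long, lies upstream of NDRG1 and downstream of ST3GAL1. The RefSeq gene table of GRCh38 lists 5 genes between them, of which 0 are protein-coding. It places CCN4 as the nearest protein-coding gene beyond the 3' end of NDRG1, and the lncRNA ST3GAL1-DT next to the start of ST3GAL1.

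The interval was chosen by measured values, namely the length of H3K27ac in the domain over NDRG1 and the width of the H3K4me1 regions inside it. Its total coverage is therefore given as a description. H3K27ac covered 105.3 and 101.1 kb of the 450 kb in replicates 1 and 2, and H3K4me1 covered 116.0 and 137.8 kb. As percentages these were 22.9 ± 0.674% for H3K27ac and 28.2 ± 3.44% for H3K4me1 (mean ± SD, n = 2 libraries each). Every pairing of libraries gave less H3K27ac than H3K4me1, with ratios from 0.733 to 0.908. By the geometric means of the libraries the ratio was 0.816. Over the series, H3K27ac covered 73.2 and 67.8 Mb and H3K4me1 72.4 and 112.1 Mb. There, H3K27ac replicate 1 was slightly above H3K4me1 replicate 1, and the other pairings also gave less H3K27ac. Less H3K27ac than H3K4me1 is therefore not particular to the interval. No test is given, since the interval was chosen on these marks. Among 60486 windows of the same length placed every 50 kb over the autosomes and chromosome X, the median coverage was 1.40% for H3K27ac and 2.34% for H3K4me1. By the mean of its libraries, H3K27ac covered more than the interval in 8 of these windows, at 3 separate loci, and H3K4me1 in 2, at 1 locus. These overlapping windows describe where the interval ranks and are no test.

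**Figure D1:**
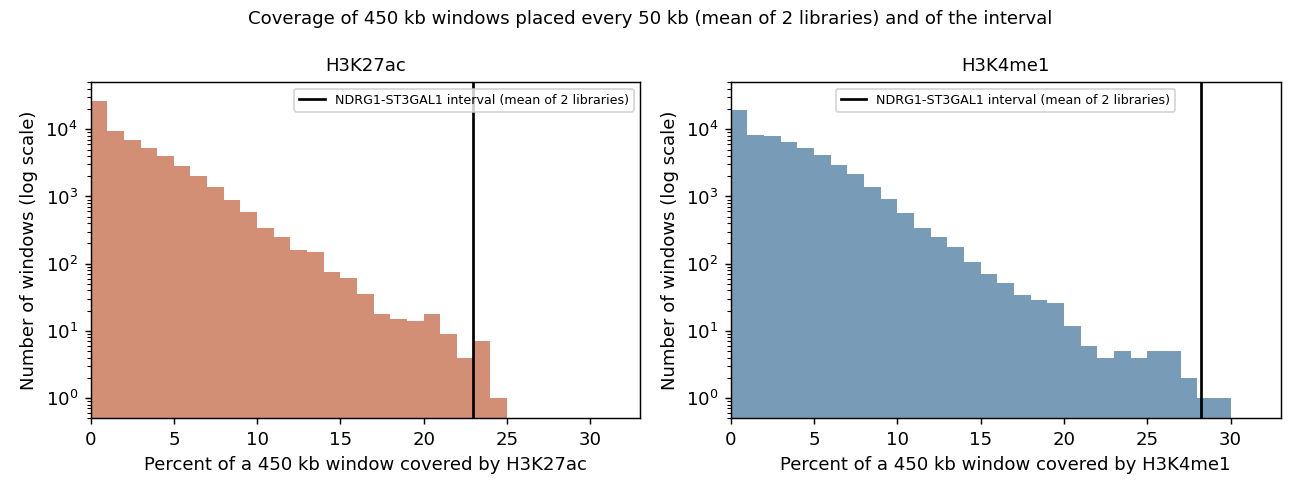
Percent of each 450 kb window covered by H3K27ac (left) and H3K4me1 (right), as the mean of 2 libraries, for 60486 windows outside the interval; the vertical axis counts windows on a log scale and the black line marks the NDRG1 and ST3GAL1 interval. The line lies at 22.9% for H3K27ac and 28.2% for H3K4me1, in the sparse upper end of both distributions.

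Both marks covered most of the body of NDRG1 and left most of the body of ST3GAL1 empty. In NDRG1, H3K27ac covered 79.7 and 75.6% of the gene in replicates 1 and 2, and H3K4me1 covered 74.3 and 84.1%. In ST3GAL1, H3K27ac covered 8.19 and 8.67% and H3K4me1 14.0 and 17.5%. The lowest value of NDRG1 in any library was thus far above the highest value of ST3GAL1. The interval was chosen for its marks over NDRG1, so this difference is a description and supports nothing. Within libraries, NDRG1 exceeded ST3GAL1 by 71.5 and 67.0 percentage points for H3K27ac and by 60.3 and 66.5 points for H3K4me1. The spread between replicates of a mark was at most 6.94 points (SD, n = 2) in either gene body.

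Coverage was intermediate between the genes and low in the flanks. Between the genes, H3K27ac covered 26.0 and 24.9% and H3K4me1 28.7 and 34.7%. Downstream of NDRG1, over 99 kb on the side of CCN4, H3K27ac covered 4.94 and 4.23% and H3K4me1 9.37 and 10.7%. CCN4 was not placed in hg19 here, so this segment may hold part or all of that gene. The longest stretch of the interval without a peak in any library lay there (43.6 kb, 134171255 to 134214828), and the largest block of both marks there, from 134226862 to 134231368, held 3525 and 3299 bp of H3K27ac and 3953 and 4507 bp of H3K4me1. In the 16 kb upstream of ST3GAL1, H3K27ac covered 8.96% in both libraries and H3K4me1 0 and 5.49%. The ranges of the marks overlapped over the NDRG1 body and did not overlap between the genes, over ST3GAL1 and downstream of NDRG1, where both H3K4me1 libraries were above both H3K27ac libraries. Upstream of ST3GAL1 both H3K27ac libraries were above both H3K4me1 libraries.

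**Figure D2:**
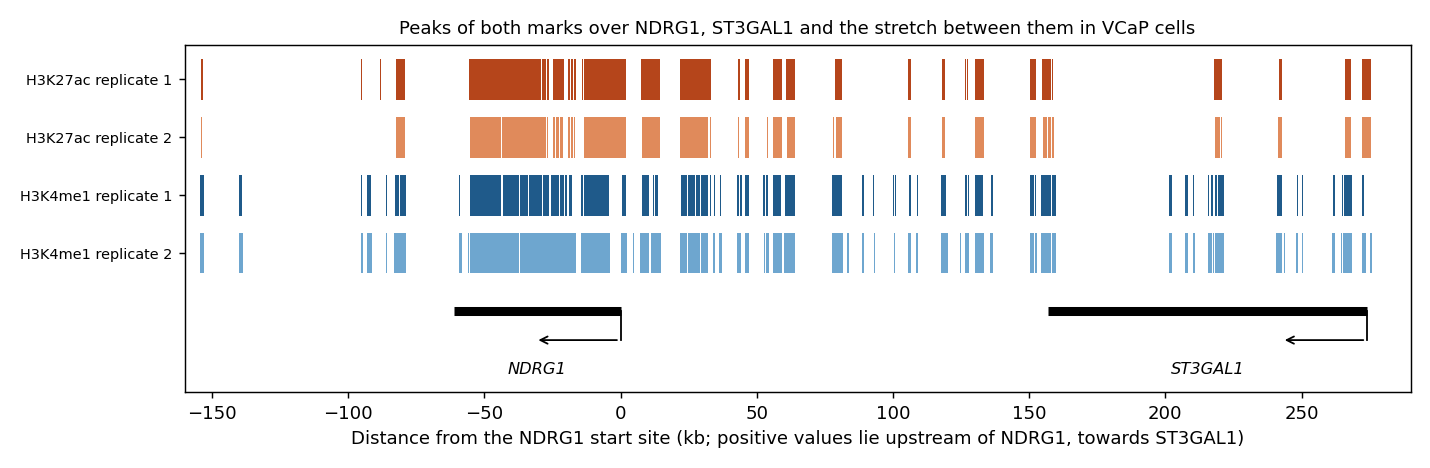
Peaks of the 4 libraries along the interval, with distance from the NDRG1 start site in kb on the horizontal axis and 1 row per library; black bars are the genes, and arrows show the direction of transcription. Peaks of both marks fill most of NDRG1 and thin out towards ST3GAL1, where stretches of 41.5 and 19.3 kb have no peak in any library.

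**Figure D3:**
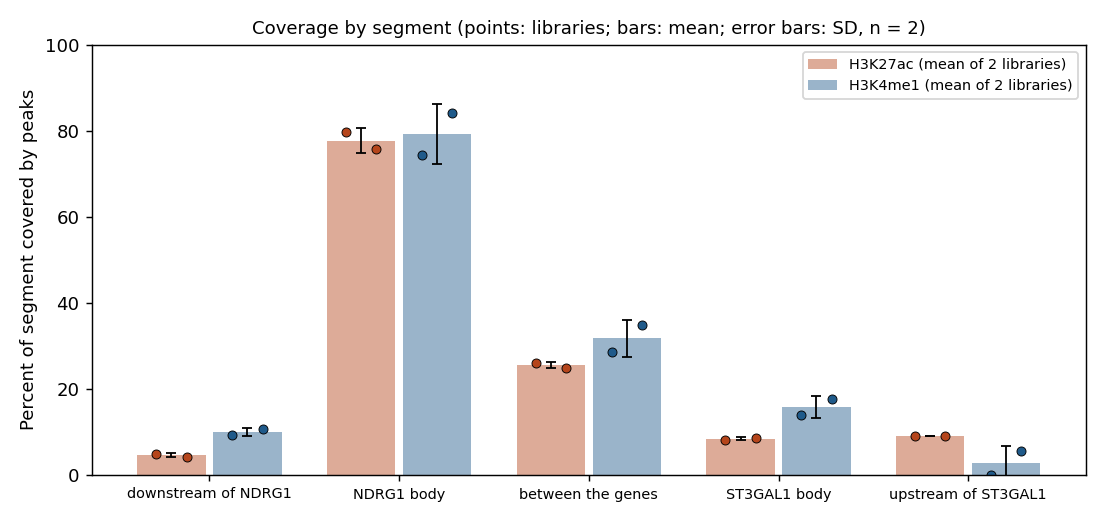
Percent of each of 5 segments covered by peaks, for H3K27ac (red) and H3K4me1 (blue); points are libraries, bars are means and error bars are SD (n = 2). The NDRG1 body stands at 77.7% for H3K27ac and 79.2% for H3K4me1, against 8.43% and 15.8% for the ST3GAL1 body.

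At the start site of NDRG1, H3K27ac formed an unbroken peak that H3K4me1 covered in most of its length, on both sides of a stretch without H3K4me1. H3K27ac ran from 134296569 to 134311837 in replicate 1 (15269 bp) and from 134296598 to 134311977 in replicate 2 (15380 bp). It reached 1.84 and 1.98 kb upstream of the start site and 13.4 kb into the gene in both libraries. These were the widest H3K27ac peaks of the interval in each library, and they ranked 16 of 54763 and 10 of 64845 peaks in their lists. H3K4me1 overlapped this H3K27ac region from both ends but was missing from a stretch within it. That stretch ran from 134305897 to 134310366 in replicate 1 (4.47 kb) and from 134306297 to 134310276 in replicate 2 (3.98 kb). Its inner end lay 4104 and 3704 bp inside the gene and its outer end 366 and 276 bp upstream of the rounded start site, so whether H3K4me1 stops before or after the exact start cannot be told at 1 kb rounding. In the 2.5 kb of gene next to the start site, H3K27ac covered 100% and H3K4me1 0% in each library. In the 2.5 kb upstream, H3K27ac covered 73.5 and 79.1% and H3K4me1 68.3 and 83.4%.

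Over the whole region of 15409 bp at the NDRG1 start site, H3K4me1 covered 71.0 and 74.2% in its 2 libraries. For comparison, of the 1152 H3K27ac regions of the series at least 5 kb wide and found in both libraries, 293 (25.4%) held a longer run without H3K4me1, and the median of the longest run was 2070 bp.

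The start site of ST3GAL1 carried a much narrower H3K27ac peak, and the H3K4me1 libraries differed from each other there. H3K27ac ran from 134582127 to 134585434 in replicate 1 (3308 bp) and from 134582091 to 134585433 in replicate 2 (3343 bp). It reached 1.43 kb upstream of the start site in both libraries and 1.87 and 1.91 kb into the gene. The libraries placed the upstream end of this peak within 1 bp of each other. In H3K4me1, replicate 1 had a peak of 556 bp at the inner end of the H3K27ac peak (134582191 to 134582746) and no peak upstream of it within the interval. Replicate 2 had 3 peaks within the 2.5 kb on each side, the nearest from 134583098 to 134583782 inside the gene and the outermost from 134585160 to 134586037. H3K4me1 thus covered 16.6% of the H3K27ac region at the ST3GAL1 start in replicate 1 and 50.4% in replicate 2. Around the start site, 2.5 kb on each side, H3K27ac covered 86.7 and 89.5% at NDRG1 and 66.2 and 66.9% at ST3GAL1. H3K4me1 covered 34.1 and 41.7% at NDRG1 and 11.1 and 45.8% at ST3GAL1, so the 2 genes overlapped in this measure. In the nearest 1 kb on each side, H3K27ac covered 100% at both start sites in each of its libraries.

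**Figure D4:**
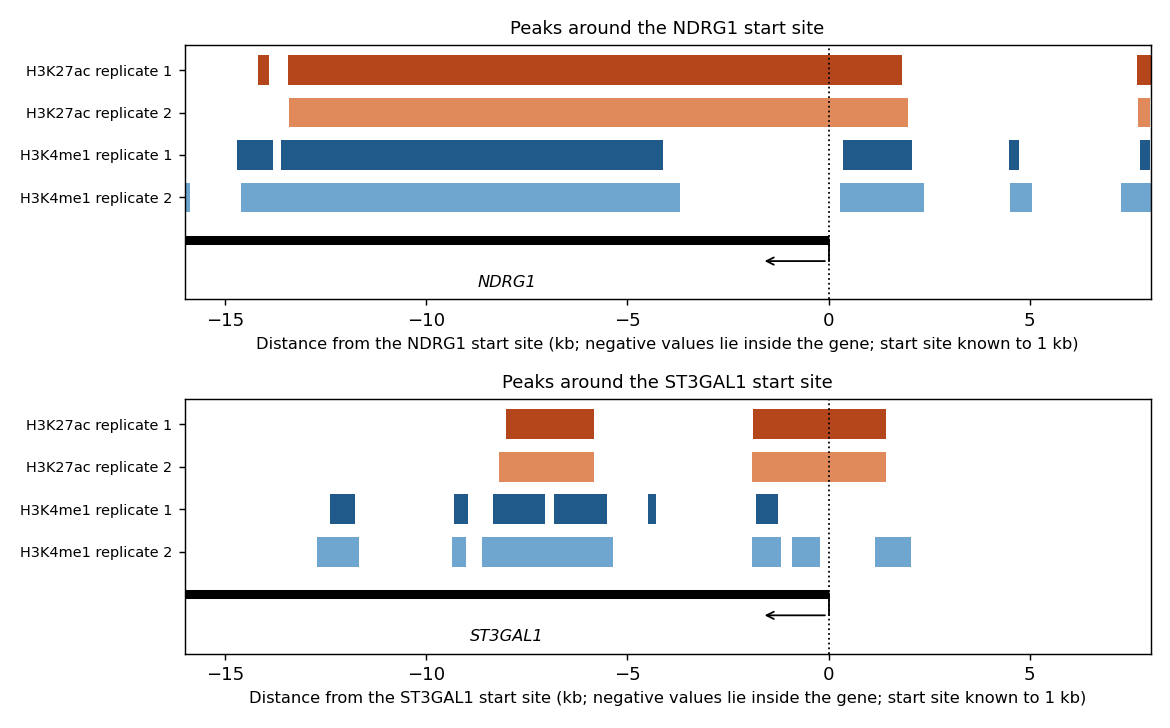
Peaks from 16 kb inside to 8 kb upstream of the start sites of NDRG1 (top) and ST3GAL1 (bottom), with 1 row per library; the dotted line is the start site, known to 1 kb. At NDRG1 an H3K27ac peak of 15269 and 15380 bp spans a stretch of 4.47 and 3.98 kb without H3K4me1, and at ST3GAL1 an H3K27ac peak of 3308 and 3343 bp spans the start site.

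Inside NDRG1, the marks lay mostly over the same stretches. With peaks of all 4 libraries joined across gaps of up to 2 kb, the interval held 31 blocks, and a single block of 58.3 kb took in nearly the whole gene and its start site (134254045 to 134312361). H3K27ac filled 50444 and 48110 bp of this block, with 10 and 17 peaks, and H3K4me1 filled 46193 and 51851 bp, with 13 and 7 peaks. Peak number thus varied between libraries more than covered length did. In the 3' part of the gene, H3K27ac regions found in both libraries ran from 134254215 to 134266358 (12144 bp) and from 134266429 to 134282772 (16344 bp), the widest of the interval. H3K4me1 regions found in both libraries covered 96.8 and 98.2% of them. The matching H3K4me1 regions ran from 134254603 to 134272828 (18226 bp) and from 134273117 to 134292752 (19636 bp). In H3K4me1 replicate 2 each of these was a single peak, of 18143 and 19557 bp, and that of 19557 bp was the widest of the 125320 peaks in its list. In H3K4me1 replicate 1 the same regions were split into 3 and 7 peaks covering 17599 and 16498 bp.

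The middle of NDRG1 was taken as the H3K27ac regions, all below 5 kb, between its widest H3K27ac region and that at its start site. Short pieces of H3K27ac there were thus set by this definition and are a description. From 134282876 to 134293691, H3K27ac had 5 peaks in replicate 1 and 11 in replicate 2, covering 6936 and 5792 bp. H3K4me1 had 5 peaks over 7176 bp in replicate 1, much like H3K27ac replicate 1, and 2 peaks over 10359 bp in replicate 2, where the peak of 19557 bp spans most of the stretch. H3K27ac found in both libraries formed 5 regions of 772 to 4086 bp here. All but the last were fully covered by H3K4me1 regions found in both libraries, which hold the bases of either library. H3K4me1 replicate 1 alone covered 88.4, 71.8 and 60.1% of those starting at 134285200, 134290741 and 134291830. The last of the 5 (134292782 to 134293691, 910 bp) overlapped no H3K4me1 peak of replicate 1 and was covered to 53.0% by replicate 2. The widest H3K4me1 region at the 5' side of the gene ran from 134295296 to 134306296 (11001 bp), up to the stretch without H3K4me1 next to the start site, and H3K27ac covered 88.4% of it. At the 3' end of the gene, H3K4me1 appeared without H3K27ac from 134250146 to 134251966, with 817 and 1524 bp in its libraries and 0 bp of H3K27ac. The longest stretch of NDRG1 with no peak in any library measured 2.08 kb.

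In the first 63.9 kb upstream of NDRG1, 4 further blocks with both marks followed. The nearest lay 7.28 to 14.7 kb upstream of the start site (134317278 to 134324687). It held 6634 and 6476 bp of H3K27ac and 4691 and 6847 bp of H3K4me1. The largest lay 21.8 to 37.1 kb upstream (134331814 to 134347127), with 11077 and 10801 bp of H3K27ac and 9975 and 11546 bp of H3K4me1. Most of its H3K27ac was a single peak in each library, of 10482 and 10456 bp, within a region from 134331814 to 134342326 that H3K4me1 covered to 84.6 and 92.0%. Beyond this region, at 134344028 to 134347127, the same block held H3K4me1 only. Blocks at 42.8 to 47.1 kb and 52.4 to 63.9 kb upstream held 2092 and 1503 bp, and 6477 and 6658 bp, of H3K27ac. With H3K27ac regions within 12500 bp of each other joined, the domain over NDRG1 ended here, at 134373928, followed by the longest stretch between the genes with no peak of either mark in any library (13.6 kb, 134373929 to 134387527). A stretch almost as long (13.5 kb) lay from 134446620 to 134460142.

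In the remaining part between the genes, from 77.5 kb upstream of NDRG1, 5 of 11 blocks held H3K4me1 without H3K27ac. Of the 16 blocks between the genes, 10 held both marks in all 4 libraries and 6 held H3K4me1 in both of its libraries and no H3K27ac in either. The 6 blocks were short, with 4.48 kb in all, against 65.0 kb for the 10 blocks with both marks. No series share of such blocks is given, so their counts are a description. In the series, only 47.1% of H3K4me1 regions overlapped H3K27ac, so H3K4me1 alone is common. The largest block in the part near ST3GAL1 lay over the 3' end of that gene (134460143 to 134469717), with 5878 and 6004 bp of H3K27ac and 7008 and 7304 bp of H3K4me1.

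Within ST3GAL1, both marks lay together in short blocks, at its 3' end and from the middle of the gene to its start site. H3K4me1 without H3K27ac also lay nearer the 3' end, between 134511237 and 134520741. The stretch from 134469718 to 134511236 (41.5 kb, 35.5% of the gene body) held no peak in any of the 4 libraries, nor did 19.3 kb from 134531433 to 134550781. Of the 7 blocks assigned to the gene body, 3 held both marks and 4 held H3K4me1 alone in both libraries. These counts too have no series share beside them and are a description. The blocks with both marks held 2791 and 2246 bp of H3K27ac (134525504 to 134531432), 1366 and 1712 bp (134550782 to 134553766), and 2183 and 2376 bp (134574640 to 134579701). H3K4me1 in them amounted to 4149 and 5288 bp, 2111 and 2559 bp, and 3150 and 3602 bp. Each of these held more H3K4me1 than H3K27ac in every pairing of libraries, whereas the block at the ST3GAL1 start site held 3308 and 3343 bp of H3K27ac against 556 and 2291 bp of H3K4me1. Going into the gene from the start site, the first block with H3K4me1 alone lay at 134571292 to 134572323 (635 and 1032 bp).

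Nearly all H3K27ac of the interval lay on H3K4me1. Of 30 H3K27ac regions found in both libraries, 28 (93.3%) overlapped an H3K4me1 region found in both libraries, against 73.5% over the 47128 regions of the series. The exceptions were the 910 bp region in NDRG1 and a region of 655 bp at 134342571 to 134343225, and each met an H3K4me1 peak of a single library. Of 54 H3K4me1 regions, 29 (53.7%) overlapped H3K27ac, against 47.1% of 84838 in the series, a share near the background. By base, H3K4me1 covered 89.7% of the H3K27ac of the interval, against 51.7% in the series, and H3K27ac covered 70.9% of the H3K4me1, against 38.8% in the series. In the 4 pairings of libraries the first of these shares was 83.0 to 91.6% in the interval and 41.8 to 52.9% in the series. The second was 67.1 to 75.4% in the interval and 31.8 to 42.2% in the series. Neither range overlapped between the interval and the series. No test was made, since the interval was chosen for its wide regions of both marks. The median width was 2354.5 bp for H3K27ac and 1378.5 bp for H3K4me1 regions in the interval, against 1217 and 944 bp in the series, and the part of width in the overlap was not tested.

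The share of bases with both marks differed between the genes. In the 4 pairings of libraries, both marks together covered 65.1 to 71.9% of the NDRG1 body, 21.6 to 24.2% of the stretch between the genes and 6.22 to 8.11% of the ST3GAL1 body. In the same pairings, H3K4me1 alone covered 6.44 to 15.1% of the NDRG1 body, 6.62 to 11.4% of the stretch between the genes and 7.28 to 9.91% of the ST3GAL1 body, so the 3 ranges overlapped. H3K27ac alone covered 6.67 to 11.9% of the NDRG1 body, 1.56 to 3.96% of the stretch between the genes and 0.553 to 1.97% of the ST3GAL1 body. The choice of library thus moved the shares of a mark alone by over 1.5 times, except that of H3K4me1 alone in the ST3GAL1 body. The shares with both marks moved by less than 1.5 times in each of the 3 segments. In regions found in both libraries, most of the H3K27ac alone in NDRG1 was the stretch of 3980 bp at the start site. Of the H3K4me1 in the NDRG1 body, 87.2% lay on H3K27ac, against 45.9% in the ST3GAL1 body. Over the 4 pairings of libraries these shares were 82.0 to 91.3% in NDRG1 and 43.5 to 48.0% in ST3GAL1, without overlap. H3K27ac found in both libraries covered 80.9% of the NDRG1 body and 9.14% of the ST3GAL1 body. The interval was chosen on such coverage, and its part in the difference was not tested. The reverse share, of H3K27ac lying on H3K4me1, was 89.3% in NDRG1 and 87.5% in ST3GAL1. The 25 H3K4me1 regions without H3K27ac had a median width of 817 bp, and the 29 with it one of 2630 bp. The widest region without H3K27ac, of 2273 bp, lay in ST3GAL1 (134525504 to 134527776), next to a region with both marks.

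Regions of at least 5 kb were gathered in NDRG1 and just upstream of it. There were 5 such H3K27ac regions (of 30, or 16.7%, against 2.44% in the series), 3 mainly in the NDRG1 body and 2 within 32.3 kb upstream of its start. All 3 such H3K4me1 regions (of 54, or 5.56%, against 0.559% in the series) lay in the NDRG1 body. ST3GAL1 had 0 of either mark. The widest regions mainly in its body measured 3344 bp for H3K27ac, at the start site, and 3386 bp for H3K4me1. An H3K4me1 region of 3666 bp reached into its 3' end but lay mainly between the genes. These widths had served to choose the interval and are given as a description.

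Replicates matched closely in the interval. It was chosen for long H3K27ac and wide H3K4me1 regions, so the comparison with the series is a description. The part of width in it was not tested. For H3K27ac, the shares of peaks and of merged regions were near those of the series. Of H3K27ac peaks, 91.2% of replicate 1 and 89.4% of replicate 2 overlapped a peak of the other library, against 87.9% and 86% in the series. For H3K4me1 the shares were 97.3% and 87.3%, against 88.3% and 68.7% in the series. The 18 peaks found in a single library were narrow, from 173 to 878 bp. After merging, 30 of 38 H3K27ac regions (78.9%, against 75% in the series) and 54 of 64 H3K4me1 regions (84.4%, against 61.6% in the series) held a peak of each library. The bases shared by both libraries amounted to 88.2% of the total they covered for H3K27ac (76.9% in the series) and to 80.8% for H3K4me1 (51.8% in the series). The outer edges of regions found in both libraries differed between libraries by a median of 76 bp for H3K27ac and 90.5 bp for H3K4me1.

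The H3K27ac domain over NDRG1 ran from 134254215 to 134373928, spanned 119.7 kb and held 77.8 kb of H3K27ac in 15 regions. Its H3K27ac length and the wide H3K4me1 regions inside it were what the interval was chosen for, so its rank among other domains in either mark is a description and supports nothing. It covered the gene from near its 3' end and 63.9 kb upstream of the start site. H3K4me1 covered 60.0 and 68.6% of its span in replicates 1 and 2. Over the 121 other domains with at least 20 kb of H3K27ac, the median was 28.5% in replicate 1 and 38.4% in replicate 2, and 5 and 6 of them had a higher percentage than the NDRG1 domain. For H3K27ac, 64.1 and 61.4% of its span was covered, against medians of 46.2 and 43.6%, with 25 and 22 domains higher. The 3 domains nearest to it in both percentages lay on chromosome 21 (42853105 to 42916691, 39.3 kb of H3K27ac), chromosome 15 (99384841 to 99421600, 24.2 kb) and chromosome 3 (53163319 to 53201306, 26.4 kb). They had H3K4me1 over 65.4, 73.1 and 64.7% of their spans, against 68.3% in the NDRG1 domain. ST3GAL1 had no domain of that size, and the one at its start site held 5.72 kb of H3K27ac, while that at its 3' end held 6.54 kb.

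**Figure D5:**
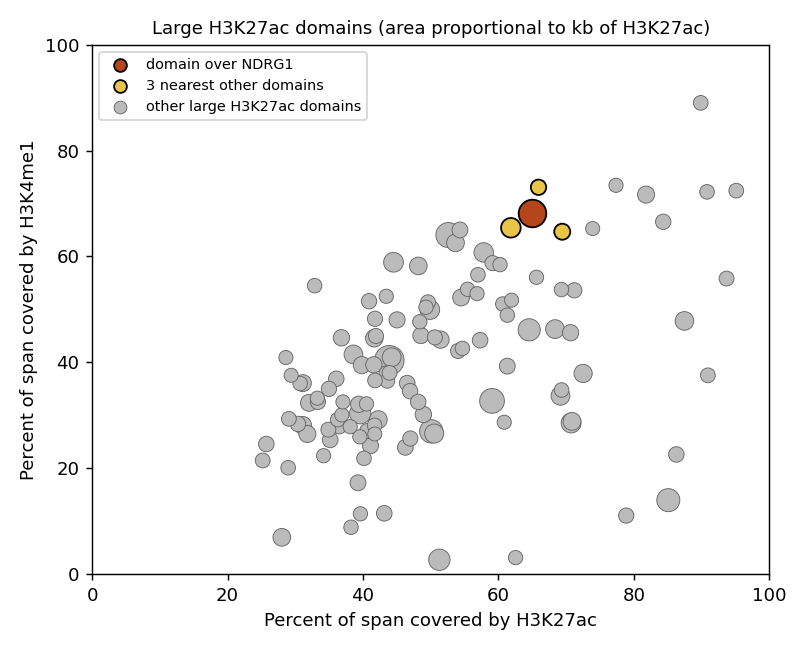
Percent of span covered by H3K27ac (horizontal) and by H3K4me1 (vertical) in regions found in both libraries, for 122 domains with at least 20 kb of H3K27ac; each point is a domain, and its area is proportional to its H3K27ac length. The NDRG1 domain (red) lies at 65.0% and 68.3%, with 6 other domains above it in H3K4me1.

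The interval ended in gaps on both sides. Its first peaks began 5.49 to 5.98 kb inside the lower edge in the 4 libraries, and the nearest peaks outside ended 10.2 to 10.3 kb below it. On the side of ST3GAL1 the last peaks ended 14.0 to 17.3 kb inside the upper edge, and the next peaks began 32.0 to 32.2 kb beyond it. The peaks just inside the lower edge were 418 to 1574 bp wide and those just outside 557 to 1849 bp.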

How the data were processed

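Peak positions of 2 H3K27ac and 2 H3K4me1 libraries of VCaP cells were used. Per the submitters' processing notes, the tools were MACS2 2.1.0, Bowtie 1.1.2, Trimmomatic 0.33 and bcl2fastq 2.17, and the build was hg19. Their roles, the control and the threshold of peak calling were not given in the sources used here. From this processing the authors deposited 1 list per library, not pooled, with chromosome, start, end and name, and no height, read number or depth. The smallest width and gap were 221 and 222 bp (H3K27ac replicate 1), 172 and 173 bp (replicate 2), 191 and 192 bp (H3K4me1 replicate 1) and 232 and 233 bp (replicate 2), which affects peak number and width.

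Positions are hg19, counted from 1. The gene table is GRCh38 and gave names and neighbours only; gene positions came with the definition of the interval, rounded to 1 kb. Overlapping peaks of a mark (1 bp or more) were merged, and regions with a peak of each library were called found in both libraries. H3K27ac regions within 12500 bp were joined into domains. Planned tests of the marks' covered lengths and of NDRG1 against ST3GAL1 are not reported, since the interval was chosen on this coverage. Comparisons with the series used the autosomes and chromosome X. Regions named are those at least 5 kb wide, at start sites, the widest peaks, edge peaks, the longest empty stretch, domains with at least 5 kb of H3K27ac and the 3 domains nearest in coverage; blocks of peaks within 2 kb and the other stretches were named after their values were seen. Members, lists and tests were chosen with earlier results of these data known. Interval functions were tested on simulated data. Python 3.11.15, numpy 2.4.6 and pandas 2.3.3 were used.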

Additional observations from a re-analysis of the deposited data

How the results depend on the processing

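For 8 lengths and percentages, which have no direction, 21 of 39 alternatives moved the value within 1 SD of the replicates. Some of these could not move it, such as the domain length without an H3K4me1 library. For the domain and the overlap shares, that SD was itself taken from values with a library left out. The ratio of the marks and the NDRG1 minus ST3GAL1 difference kept their sign in 14 of 14 alternatives, but the interval was chosen on these marks, so this is no sign of stability. With 232 bp as minimum width and joining distance of all lists, the H3K27ac length of the NDRG1 domain was 69.4 kb, over a span of 89.0 kb. With the 54763 widest peaks per list it was 69.2 kb, over the same span. In that setting, 86.2% of H3K27ac regions overlapped H3K4me1 and 69.4% of H3K4me1 regions overlapped H3K27ac. No series shares are given for that setting, so these cannot be set against the 73.5 and 47.1% of the main setting. The longest empty stretch between the genes was then 16.3 kb. Joining distances of 5 and 20 kb gave 51.3 and 80.2 kb of H3K27ac; at 5 kb the domain spanned 57.8 kb. Leaving out a library gave 91.2 to 96.7% and 52.4 to 58.7% for the overlap shares, 73.5 to 77.8 kb for the domain, 13.6 to 13.7 kb for the stretch, 0.749 to 0.890 for the ratio of the marks and 64.6 to 68.3 points for NDRG1 above ST3GAL1. Narrowing and widening the genes by 1 kb at each end gave 69.4 and 64.2 points. H3K27ac coverage within 1 and 5 kb of the start sites was 100 and 69.1% at NDRG1 and 100 and 33.3% at ST3GAL1. H3K4me1 coverage in the same windows was 17.1 and 15.2% at ST3GAL1, against 28.5% within 2.5 kb, a change that is within 1 SD only because the libraries there differ widely (SD 24.5 points, n = 2). The cause of these changes was not tested. Over 45 stretches of 10 kb, the replicate 1 minus 2 differences of the marks correlated weakly and negatively (Pearson r = -0.334). Of these stretches, 11 had no peak in any of the 4 lists. No label pairs the replicate numbers. With a replicate block, and with crossed numbers (added after seeing the data), the ratio is 0.816 by construction, so neither bears on it. On a fixed grid of 6536 windows, 0 had more of either mark than the interval. A stricter peak threshold was not run, as the lists carry no score. Depth, and with it the limit of detection, is unknown.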
